A study of Homo sapiens with 6 samples.

Results

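BX470102.2 is an annotated long intergenic noncoding RNA (lincRNA) gene inside the S100 gene cluster of human chromosome 1q21. It is described here with 9 S100 genes of the same region: S100A16, S100A14, S100A13, S100A1, S100A2, S100A3, S100A4, S100A6 and S100A11. These 10 genes were taken by name from 58780 human genes in the deposited tables. They were selected on earlier results of the same 6 libraries, with the large difference of BX470102.2 between treated and control cells among the values that chose them. Their own differences between the groups are therefore given as a description, without a p-value. All 10 passed the filter on low counts, as did 19725 genes in all.

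The libraries came from HCT116, a human colorectal carcinoma cell line. In 1 group cells had received auxin for 16 h, and in the other they had received DMSO, the solvent control, with 3 biological replicates in each. Auxin is a plant hormone that in engineered cells triggers destruction of a protein fused to a degron tag. The labels name neither the protein targeted nor the edited allele, and their genotype entry holds the treatment only. They do not say whether the line was 1 clone, and no level of a targeted gene could be checked. An effect of auxin itself and an effect of protein loss cannot be told apart in these groups.

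S100 proteins are small calcium-binding proteins built around a pair of EF-hand motifs, and most work as dimers. On binding calcium they expose a surface that docks onto other proteins, such as annexins, cytoskeletal proteins and kinases. Some are also released from cells and act on surface receptors, the best known being RAGE, encoded by AGER. Most human S100 genes sit side by side at 1q21, next to the genes of the cornified envelope of skin. LincRNA genes make no known protein, and few have a known function. No function of BX470102.2 is assumed here.

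Expected counts, the estimated number of reads per gene, summed to between 234035407 and 625892507 per library, and replicate 1 was the deepest library of both groups. Each library listed 59526 rows, and the non-human rows took at most 0.00111% of the counts. The epithelial character of the line was visible in both groups: the summed level of 8 colorectal epithelial markers was 1801 to 2468 TPM (a level scaled by transcript length and to the same total in every library) in DMSO and 2215 to 2657 TPM in auxin. KRT8, an epithelial keratin, averaged 756.8 TPM in DMSO. LGR5, a stem cell marker of the list, was at most 0.01 TPM. PTPRC, a general leukocyte marker, and CD3E, a T cell marker, were listed at 0 in every library. Among the 7 epithelial markers tested, 6 rose, where 25.4% of all genes tested were called higher and 26.9% lower. All 6 calls were lost in the limma fits on TPM, and those of EPCAM and KRT18 also without DMSO replicate 1 or 2 or without auxin replicate 2 or 3. CLDN7, a tight junction claudin, fell by 3.62 on the log2 scale (adjusted p = 1.54e-06, edgeR quasi-likelihood test with Benjamini-Hochberg adjustment). CD68, the most abundant of the 4 leukocyte markers and also a lysosomal protein of other cells, fell by 1.65 (edgeR adjusted p = 9.65e-06). The 3 fibroblast markers summed to at most 2.61 TPM and the 2 endothelial markers to at most 0.06 TPM in a library. Whether any of these shifts had a part in the values below was not tested. In bulk RNA, fewer cells carrying a transcript and less of it per cell cannot be told apart.

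BX470102.2 (ENSG00000285867.1) lies on the minus strand at chr1:153586813-153606283 (GRCh38, annotation of GENCODE 29). Its single annotated transcript has 2 exons. Exon 1 is 112 bases long, the intron 16295 bases, and exon 2 3064 bases, so that exon 2 makes up 96.5% of the spliced length of 3176 bases. Transcription in this direction reaches S100A16 first: BX470102.2 begins 602 bases after the annotated end of S100A16, on the same strand. S100A2 follows on the same strand after a further gap of 18922 bases. No annotated gene overlaps BX470102.2 on either strand, whether in exons or in the gene body. The tables hold no read positions. Reads over exon 2 from spliced RNA, from unspliced RNA and from RNA that continued past the end of S100A16 therefore cannot be told apart.

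How well reads can be placed on this transcript was examined with windows of 31 bases. A window was called shared when it also occurs, on either strand, in an annotated transcript of another gene. Matches to the opposite strand are thus included, and shares counted by strand could be lower. In exon 1, 110 of the 112 bases lay in shared windows, and a single window recurred in up to 263 other genes. In exon 2 the share was 42.0%, with up to 1743 other genes holding the same window. Counted over the whole transcript, 579 of 3146 windows (18.4%) were shared. The S100 transcripts differed in this respect. In S100A14, S100A2, S100A3, S100A4 and S100A6 no window was shared with another gene, while in the 6 transcripts of S100A13 the share ran from 29.4% to 62.0%, each window with 1 other gene at most. Despite the shared windows, the posterior standard deviation that the authors deposited for the count of BX470102.2 was 0 in every library. Their estimation thus left no uncertainty about the reads it counted for this gene. Whether reads that fit many places were left out before counting is not given in the sources used here. Among the S100 genes the largest posterior standard deviation was 9.36 counts for S100A13, or 0.119% of its count.

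The 3′ end of the lincRNA also differed from those of the 9 S100 genes. The last 40 bases of BX470102.2 hold neither AATAAA nor ATTAAA, the common polyadenylation signals, searched on the transcript's strand. All 9 S100 genes had 1 or both in the same window of the transcript carrying most of their counts. Among all annotated transcripts, 41.2% of 14379 lincRNA transcripts and 42.9% of 83129 transcripts of the type protein_coding held either signal there. Most transcripts of both types thus held neither, as did BX470102.2. These shares cover every annotated transcript, not only those carrying most counts of a gene. The annotation includes transcripts with incomplete ends, and no match says only that these letters are not in this window.

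BX470102.2 was scarce in DMSO cells and abundant in auxin cells. Its counts were 1094, 488 and 394 in DMSO replicates 1, 2 and 3, and 29797, 11183 and 11202 in auxin replicates 1, 2 and 3. Scaled to library size as CPM, with TMM factors, the DMSO libraries had 1.82, 1.73 and 1.45 and the auxin libraries 46.1, 46.8 and 50.6. The groups lay far apart, and within each group the libraries were close to one another. Means were 1.67 ± 0.19 CPM in DMSO and 47.8 ± 2.40 CPM in auxin (SD, n = 3 each). The fitted log2 fold change was 4.84 (SE 0.11), or 28.6-fold. Within same-numbered libraries the log2 ratio was 4.67, 4.76 and 5.12. The level per length went from 0.77, 0.50 and 0.43 TPM to 15.9, 12.5 and 14.4 TPM. The deposited TPM interval that lay highest in DMSO ended at 0.808, and the lowest in auxin began at 12.2.

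**Figure D1:**
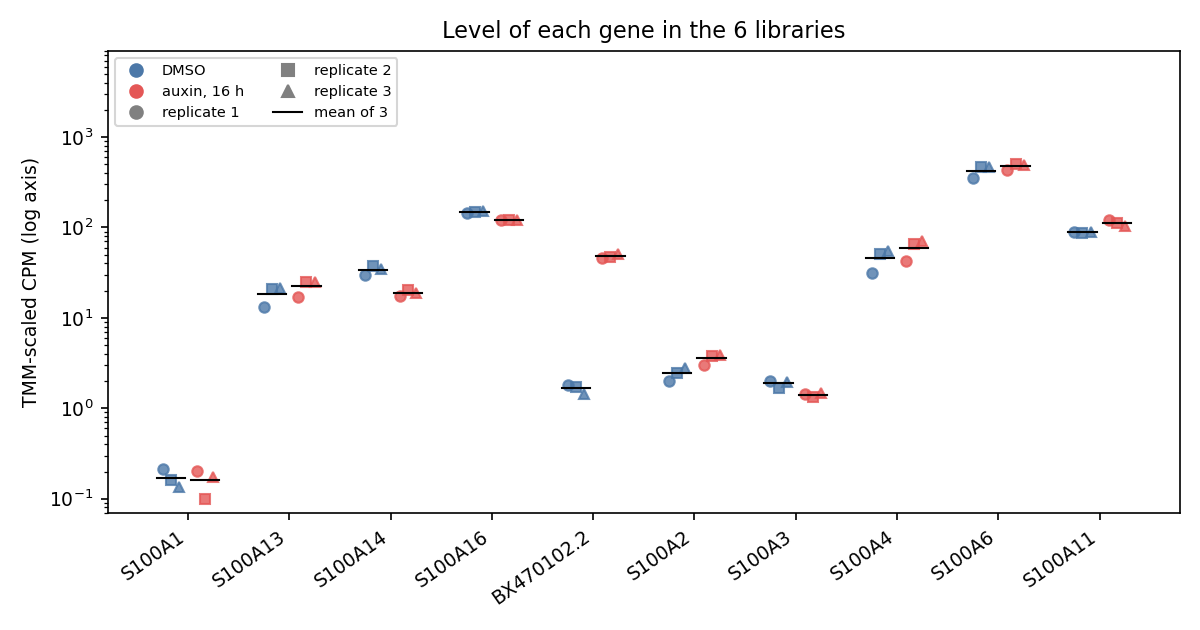
Level of each gene in the 6 libraries, as CPM with TMM factors on a log axis, with genes in order along the direction in which BX470102.2 is transcribed. Blue points are DMSO and red points auxin libraries, shapes give the replicate number, and bars are means of 3; BX470102.2 goes from 1.67 to 47.8 CPM, while the largest fold among the S100 genes is 1.78, for S100A14.

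Among 1292 lincRNA genes tested, BX470102.2 had the largest fold change. LINC02019, on chromosome 3, came next with a log2 fold change of 3.70. Over all 19725 genes tested BX470102.2 ranked 7, and among the 12848 with a mean of at least 1 CPM it ranked 2. By TPM it moved from rank 372 among the lincRNA genes in DMSO to rank 28 in auxin. These ranks describe the contrast that chose the gene. Of the lincRNA genes, 329 were called higher and 129 lower, beside 25.4% and 26.9% of all genes tested, with a median log2 fold change of 0.18 against 0.02 over all genes.

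The gene that precedes BX470102.2 on the strand, S100A16, went the opposite way. S100A16 (chr1:153606886-153613145, minus strand) is one of the most widely expressed members of the family. It had 143.6, 146.6 and 151.4 CPM in DMSO and 119.6, 121.8 and 121.2 CPM in auxin, a log2 fold change of -0.28 (SE 0.05). All auxin libraries were below all DMSO libraries, by a small margin and with little spread. Per length, BX470102.2 stood at 0.389%, 0.357% and 0.285% of the TPM of S100A16 in the DMSO libraries and at 11.8%, 11.5% and 12.5% in the auxin libraries. It thus remained well below its neighbour in every library.

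The same arrangement was looked up elsewhere in the genome, a comparison added after the data were seen. There were 122 tested lincRNA genes, BX470102.2 included, that begin within 5 kb after the end of a protein-coding gene on the same strand. Of these, 25 were called higher and 13 lower, with a median log2 fold change of 0.15. The shares called among all genes tested were 25.4% and 26.9%, so the count of higher calls among the 122 is not above that background. The largest value after that of BX470102.2 was 2.25. With a mean of at least 1 CPM required, 19 remained, of which 7 were higher and 2 lower, beside the same shares of all genes tested. Nothing is read from counts of so few genes. Among the 19, the largest value after that of BX470102.2 was 1.72, for AC103746.1 after NR2F2. In 3 of the 18 of these whose preceding gene was tested, the lincRNA gene and that gene had fold changes of opposite sign.

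**Figure D2:**
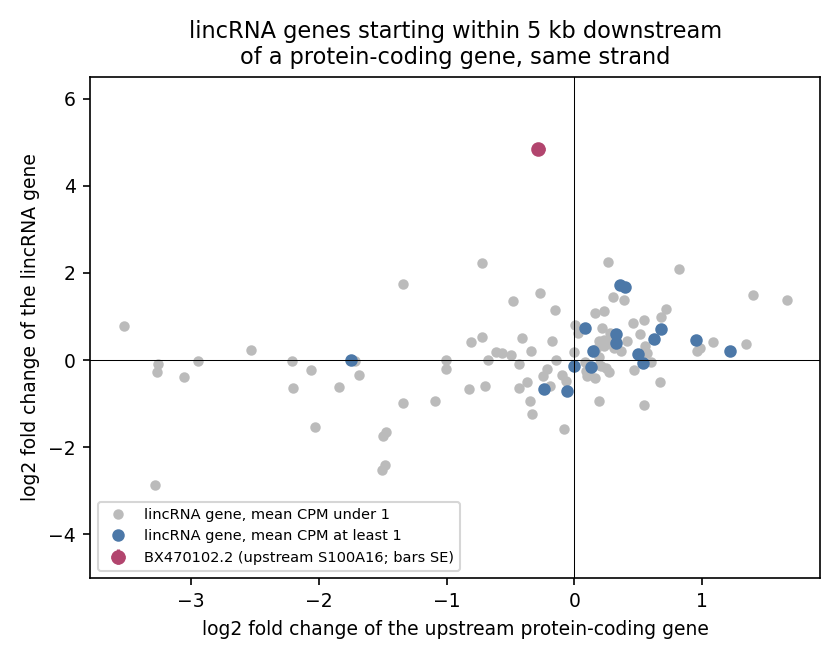
Log2 fold change (auxin minus DMSO) of lincRNA genes that begin within 5 kb after a protein-coding gene on the same strand, against that of the preceding gene, for the 117 pairs with both tested. Grey points have a mean under 1 CPM and blue points at least 1 CPM; BX470102.2 is drawn in dark pink with SE bars that are about as small as the point, at 4.84 against -0.28 for S100A16, above every other point.

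Genes with the most similar pattern were sought among 12844 genes with a mean of at least 1 CPM and counts in every library, by the root mean square difference of log2 CPM over the 6 libraries after centring each gene on its own mean. The closest was C7orf61, a protein-coding gene of chromosome 7, at a difference of 0.0997. Its CPM values were 0.105, 0.103 and 0.0810 in DMSO and 2.56, 2.27 and 2.60 in auxin, a log2 fold change of 4.67. The order of the replicates differed between the genes: auxin replicate 3 was the highest in both, and auxin replicate 2 the lowest only in C7orf61. LINC02019 (0.663), AC073610.3 (0.747), PTPRR (0.822) and AC093567.1 (0.956) followed at distances several times larger. PTPRR, a receptor-type tyrosine phosphatase gene, had a log2 fold change of 3.21. None of the 5 was an S100 gene. They came in the order of their log2 fold changes, from 4.67 down to 2.93. The distance thus mainly follows the contrast that chose BX470102.2, and nothing further is read from it.

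S100 genes covered a wide span of levels, with S100A6 and S100A11 highest and S100A1 lowest by mean in both groups. In DMSO, S100A6 led with 897 ± 48.0 TPM (SD, n = 3), followed by S100A11 at 226 ± 52.9, S100A16 at 163 ± 30.8 and S100A4 at 111 ± 11.6 TPM. S100A14 at 50.7 ± 8.65 and S100A13 at 46.8 ± 5.17 TPM formed a middle level. S100A2 with 5.53 ± 0.56 TPM, S100A3 with 2.94 ± 0.83 TPM and S100A1 with 0.433 ± 0.205 TPM were low. BX470102.2, at 0.567 ± 0.179 TPM, stood between S100A3 and S100A1. The ranges over libraries overlapped for S100A11 and S100A16, for S100A14 and S100A13, and for BX470102.2 and S100A1, whose order is therefore not resolved. In auxin, BX470102.2 at 14.3 ± 1.70 TPM stood between S100A14 at 24.5 ± 2.16 and S100A2 at 7.52 ± 0.45 TPM, with no overlap on either side. S100A4 at 131 ± 20.1 and S100A16 at 120 ± 13.6 TPM overlapped there, whereas in DMSO S100A16 was above S100A4 without overlap. S100A13, at 53.3 ± 6.29 TPM in auxin, was above S100A14 there without overlap.

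S100A14, the next gene beyond S100A16, had the largest difference of the S100 genes. S100A14 (chr1:153614255-153616986, minus strand) encodes a protein of epithelial cells that can bind RAGE. Its CPM values were 29.5, 37.1 and 34.5 in DMSO and 17.3, 20.4 and 18.9 in auxin. Every auxin library was below every DMSO library, with group means of 33.7 ± 3.84 and 18.9 ± 1.58 CPM (SD, n = 3). The log2 fold change was -0.84 (SE 0.10), a 1.78-fold lower level in auxin. On the TPM scale the log2 difference was larger, -1.01 with 1 TPM added before the logarithm.

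S100A13 and S100A1 share ground on opposite strands. S100A13 (chr1:153618787-153631360, minus strand) takes part in the release of FGF1 from stressed cells. It had 13.1, 20.9 and 21.6 CPM in DMSO and 17.2, 25.1 and 24.9 CPM in auxin, a log2 fold change of 0.27 (SE 0.22). Replicate 1 was the lowest library of both groups, so the groups overlapped, yet auxin was above DMSO in each of the 3 same-numbered pairs. Its exons share 536 bases with AL162258.1 on the same strand and 235 bases with S100A1 on the other strand. S100A1 (chr1:153627926-153632039, plus strand), which regulates calcium release in heart and skeletal muscle, had only 24 to 131 counts per library. Its CPM values of 0.213, 0.160 and 0.136 in DMSO and 0.203, 0.1004 and 0.176 in auxin overlapped, with a log2 fold change of -0.08 (SE 0.32). The sign of that value differed between the pairs, and it turned positive with upper-quartile scaling and with some single libraries left out, up to 0.15. Whether the authors counted by strand is not given in the sources used here. The deposited posterior standard deviation of the S100A1 count was 0 in every library, so their estimation divided no read between S100A1 and S100A13.

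On the far side of BX470102.2, S100A2 was higher and S100A3 lower in auxin. S100A2 (chr1:153561108-153567890, minus strand) encodes a largely nuclear protein of epithelial cells that can bind p53. Its CPM values were 2.02, 2.49 and 2.78 in DMSO and 2.98, 3.804 and 3.91 in auxin, a log2 fold change of 0.55 (SE 0.17). The groups did not overlap, though the highest DMSO library came close to the lowest auxin library. S100A3 (chr1:153547329-153549372, minus strand), best known from the hair cuticle, had 1.99, 1.70 and 1.96 CPM in DMSO and 1.44, 1.33 and 1.46 CPM in auxin. All auxin libraries were below all DMSO libraries, with a log2 fold change of -0.42 (SE 0.12). S100A3 lies within the body of S100A4 on the same strand, over 2044 bases, but the genes share no exon base.

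S100A4 and S100A6, 2 of the most abundant members, were higher in auxin within each pair, while their groups overlapped. S100A4 (chr1:153543613-153550136, minus strand) binds nonmuscle myosin and is widely studied in metastasis. It had 31.6, 51.3 and 54.4 CPM in DMSO and 42.9, 65.9 and 70.4 CPM in auxin, a log2 fold change of 0.38 (SE 0.25). The overlap of the groups again came with replicate 1, the lowest library of both, and all 3 pairs had auxin above DMSO. S100A6 (chr1:153534599-153536244, minus strand), also called calcyclin, had 350.2, 461.6 and 461.5 CPM in DMSO and 429.1, 501.5 and 493.7 CPM in auxin. Its log2 fold change of 0.16 (SE 0.12) was of the same sign in all 3 pairs, while its TPM hardly differed, at 897 and 907. S100A6 shares 23 exon bases with the antisense gene BX470102.1, a different gene from BX470102.2 despite the similar name.

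S100A11 (chr1:152032506-152047907, minus strand) lies 1558 kb from BX470102.2, and its protein pairs with annexin A1. Its CPM values were 90.2, 87.6 and 88.4 in DMSO and 120.8, 111.5 and 102.5 in auxin, a log2 fold change of 0.33 (SE 0.07). The auxin libraries were all higher, with ratios that ran from 0.21 to 0.42 on the log2 scale over the pairs.

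**Figure D3:**
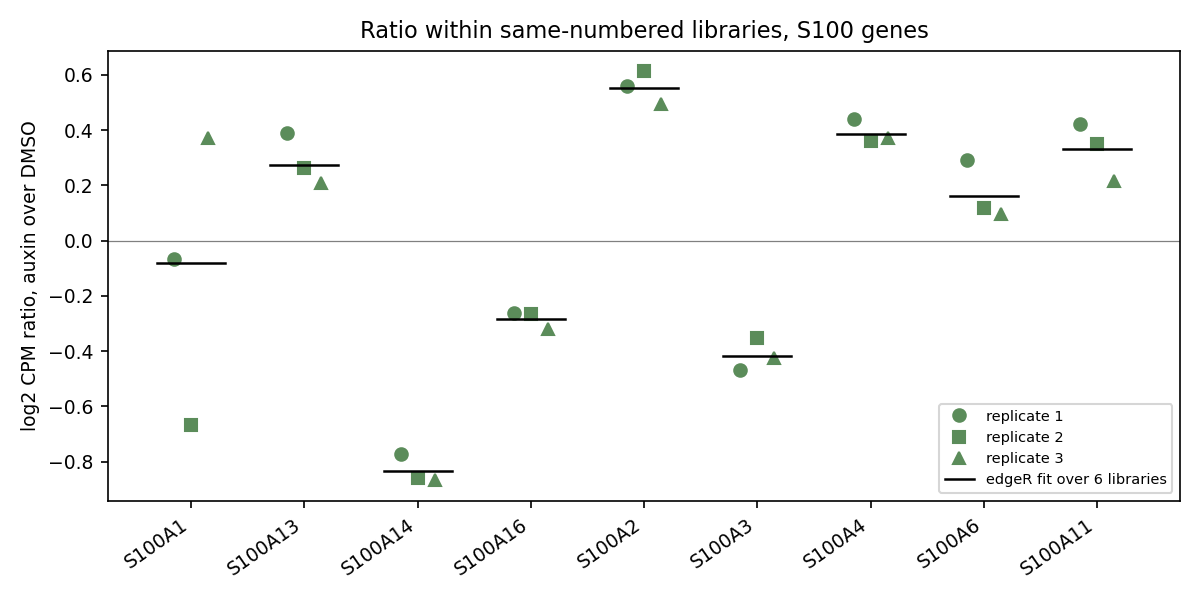
Log2 ratio of CPM, auxin over DMSO, in the 3 same-numbered pairs of libraries (shapes) for the 9 S100 genes, with the fitted log2 fold change as a bar. S100A14, S100A16 and S100A3 are below 0 in every pair, S100A13, S100A2, S100A4, S100A6 and S100A11 above 0 in every pair, and S100A1 has both signs.

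The 9 S100 genes had a median fold change of 0.16 on the log2 scale and 5 values above 0, against 0.02 over all genes tested. In the edgeR fit over all genes, 3 of the 10 genes were called higher (BX470102.2, S100A2 and S100A11) and 3 lower (S100A16, S100A14 and S100A3), beside 25.4% of all tested genes called higher and 26.9% called lower. The same 6 were those whose groups did not overlap, which held for 60.3% of all tested genes. With the replicate number as a block, S100A13, S100A4 and S100A6 were also called, giving 6 higher and 3 lower, beside 35.5% and 34.4% of all genes. Nothing is read from these counts, or from the calls of these genes that follow, since the contrast entered the choice of the genes. The S100A2 call was lost without auxin replicate 2 or 3 or DMSO replicate 1 or 2, and that of S100A3 without auxin replicate 2 or 3 or DMSO replicate 1 or 3, with upper-quartile factors and without a count filter. Tested on TPM with limma, only BX470102.2 and S100A14 were called.

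Each gene kept its leading transcript. The 10 genes have 44 annotated transcripts, and the one with most counts was the same in both groups for all 10 genes. BX470102.2 has 1 transcript, so its count cannot be divided further. In S100A16 the leading transcript, S100A16-204, carried 95.7% ± 1.83 of the counts in DMSO and 95.1% ± 1.40 in auxin (SD, n = 3). In S100A14, S100A14-201 carried 76.2% ± 8.03 and 82.3% ± 2.78, with overlapping libraries.

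The shares of some transcripts of 4 S100 genes, S100A13, S100A2, S100A4 and S100A6, did not overlap between the groups. S100A13-206, a transcript without an annotated reading frame, took 7.92%, 3.83% and 4.03% of the S100A13 count in DMSO and 3.25%, 1.43% and 1.77% in auxin. In S100A2, the share of the leading transcript S100A2-202 was 56.5%, 55.7% and 51.0% in DMSO and 48.5%, 48.0% and 43.7% in auxin. S100A2-206 went the other way, from 2.55%, 1.99% and 4.44% to 6.53%, 5.59% and 9.75%. The share of the leading transcript was thus lower in a gene whose total was higher. In S100A4, S100A4-203 had 1.69%, 1.00% and 0.722% in DMSO and 0.483%, 0.160% and 0.203% in auxin, and S100A4-206, with under 1% in every library, was also lower in each auxin library. In S100A6 the shifts were small but even: S100A6-205 had 2.07%, 2.04% and 2.02% in DMSO and 1.65%, 1.56% and 1.57% in auxin. These shares were not tested, and S100A13-206 is a transcript in which part of the windows are shared with another gene. The transcripts named were picked from 44 because their shares separated. How often shares separate among the transcripts of all genes is not given here, so nothing is read from them.

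The region around these genes was examined by position alone. Within 500 kb of BX470102.2 there were 62 other annotated genes, of which 23 were tested, and 22 of these lie on the side of S100A16. Of the 23, 1 rose and 12 fell, beside 25.4% and 26.9% of all genes, with a median log2 fold change of -0.53. The gene that rose was CHTOP, which encodes a chromatin and mRNA export factor. It had 85.5, 84.6 and 84.98 CPM in DMSO and 113.5, 112.7 and 117.6 CPM in auxin, and its fitted log2 difference was 0.43 with an SE of 0.05 (edgeR adjusted p = 0.000317). With the replicate number as a block, NUP210L (0.76, edgeR adjusted p = 0.0197) and RPS27 (0.34, edgeR adjusted p = 0.000308) were called as well. Tested on TPM with limma, CHTOP was not called, with an adjusted p of up to 0.341 over 15 alternatives.

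The genes that fell most lay farther off. CREB3L4, a membrane-bound transcription factor gene, went from 1.56 ± 0.16 to 0.157 ± 0.078 CPM, a log2 fold change of -3.25 (edgeR adjusted p = 0.000202). SLC27A3, of a family of fatty acid transport proteins, had -2.82 (edgeR adjusted p = 0.000155). INTS3, a subunit of the Integrator complex that trims noncoding RNAs and ends transcription, went from 79.5 ± 2.68 to 13.8 ± 2.57 CPM, or -2.53 (SE 0.13, edgeR adjusted p = 1.04e-05). DENND4B, with -2.14, acts on Rab proteins in membrane traffic (edgeR adjusted p = 0.00217), a call lost in both limma fits on TPM (adjusted p up to 0.145). CRTC2, a coactivator of CREB, had -1.64 (edgeR adjusted p = 9.89e-05). All 5 lie more than 100 kb from the start of BX470102.2, beyond the S100 genes.

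Closer to the cluster the changes were smaller. SNAPIN, which takes part in vesicle and lysosome transport, had a log2 fold change of -0.32 (edgeR adjusted p = 0.00923), a call lost in both limma fits on TPM (adjusted p up to 0.116). AL162258.1, which overlaps S100A13 on the same strand, had -0.63 (edgeR adjusted p = 0.0322), a call lost in 7 of 15 alternatives. Those were upper-quartile scaling, both limma fits on TPM, and the fits without DMSO replicate 1 or 2 or without auxin replicate 2 or 3, and the adjusted p over the alternatives reached 0.194. S100A5, the only tested neighbour on the side of S100A2, did not pass the test, at 0.08 with an SE of 0.16 (edgeR adjusted p = 0.707). Around BX470102.2 itself, the fold changes of the tested genes within 60 kb on either side ranged from -0.84 for S100A14 to 0.55 for S100A2.

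**Figure D4:**
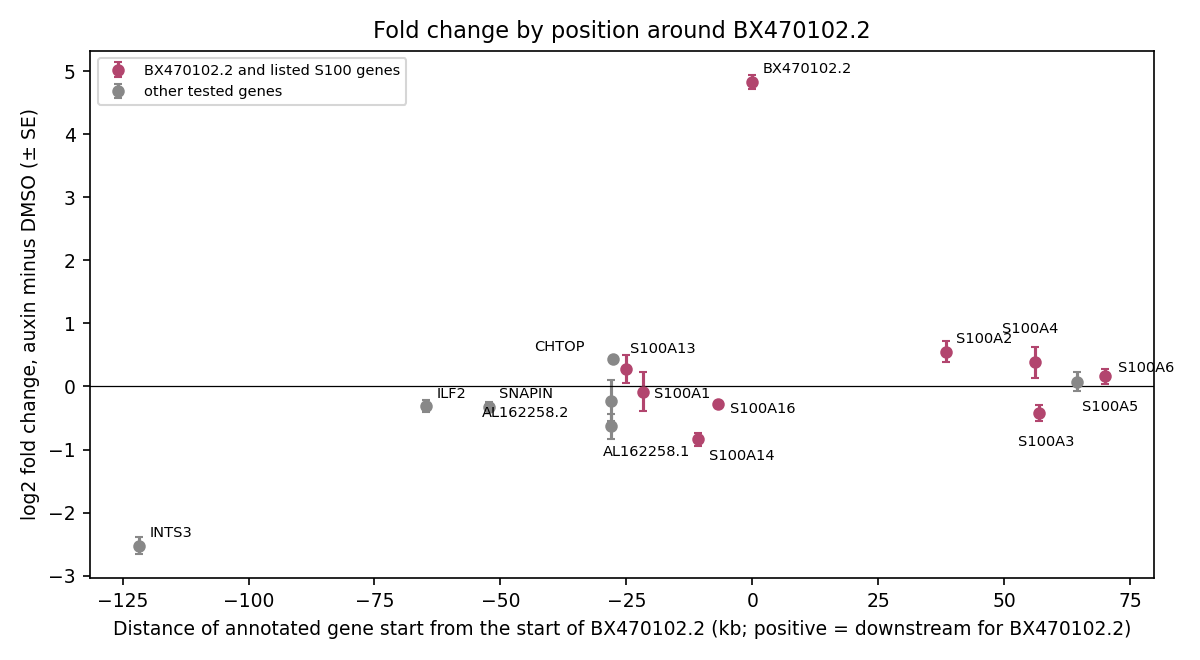
Fold change by distance of each gene's annotated start from the start of BX470102.2, in kb, positive in the direction in which BX470102.2 is transcribed; bars are SE. The plot runs from INTS3 to S100A6, so that S100A11, at 1558 kb, and the neighbours beyond INTS3, SLC27A3 and CREB3L4 among them, are outside it. The 10 genes described are dark pink and other tested genes grey; BX470102.2 stands at 4.84, and the other genes within the plot lie between -2.53 for INTS3 and 0.55 for S100A2.

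Among 12 further S100 genes, 7 were listed at 0 in every library, S100A8, S100A9 and S100B among them, which are known from myeloid and glial cells. Only S100A5, S100A10 and S100P had enough counts to be tested. This list and the gene lists below were drawn up with earlier results of these data known. Their p-values therefore describe these genes and do not test an independently chosen set. S100A10, the partner of annexin A2 and itself a 1q21 gene, rose from 168.4 ± 21.04 to 228.0 ± 17.1 CPM, by 0.44 with an SE of 0.11 on the log2 scale (edgeR adjusted p = 0.0109). Its groups did not overlap, and the call was lost with both limma fits on TPM, with an adjusted p of up to 0.129. S100P, with 0.0502 ± 0.0099 CPM in DMSO and 0.0673 ± 0.0301 CPM in auxin, did not pass the test (edgeR adjusted p = 0.322). S100A10 averaged 307.9 TPM in DMSO, below S100A6, and its range over libraries overlapped that of S100A11, so the order of these 2 is not resolved.

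Genes of proteins known to bind or receive S100 proteins changed in both directions. Of 16, 15 were tested, 4 rose and 8 fell, beside 25.4% and 26.9% of all genes, with a median log2 fold change of -0.22 against 0.02 over all genes. FGF1, a growth factor released together with S100A13, rose by 1.78 on the log2 scale (edgeR adjusted p = 0.000109), from 1.53 ± 0.14 to 5.23 ± 0.92 CPM. ANXA1, the annexin bound by S100A11, rose by 0.71 (edgeR adjusted p = 9.26e-05) and ANXA2, bound by S100A10, by 0.61 (edgeR adjusted p = 0.00114). AHNAK, a giant scaffold protein that binds S100A10 with annexin A2, rose by 0.58 (edgeR adjusted p = 0.000709). The ANXA1 and ANXA2 calls were lost in the limma fits on TPM, and those of FGF1 and AHNAK were kept in all 15 alternatives. The size of the FGF1 change depended on the scale. Its log2 fold change ran from 0.51 to 1.92 over the alternatives, and its mean level went from 0.767 TPM in DMSO to 1.52 TPM in auxin.

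PPP5C, a protein phosphatase that several S100 proteins bind, had the largest change of the list, which was chosen with earlier results known. It fell from 79.2 ± 2.83 to 5.66 ± 0.80 CPM, which was -3.80 with an SE of 0.11 on the log2 scale (edgeR adjusted p = 1.99e-06). AGER, the RAGE receptor gene, fell by 2.05 from a low level of 0.383 ± 0.103 CPM (edgeR adjusted p = 0.00061). MYH9, the nonmuscle myosin heavy chain bound by S100A4, fell by 0.60 (edgeR adjusted p = 0.00137), a call lost on TPM with limma. ANXA11, an annexin bound by S100A6, fell by 0.58 (edgeR adjusted p = 0.00042). CACYBP, named for its binding of calcyclin, did not pass the test (log2 fold change -0.17, edgeR adjusted p = 0.344), but was called with the replicate number as a block (edgeR adjusted p = 0.00138). TLR4, a receptor of S100A8 and S100A9, was listed at 0 in every library. The SUGT1, STK38 and RYR1 calls, also lower, were lost when certain single libraries were left out: auxin replicate 3 for SUGT1, DMSO replicate 2 or 3 or auxin replicate 1 for STK38, and DMSO replicate 2 or 3 or auxin replicate 1 or 3 for RYR1.

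The skin genes that share the 1q21 complex were near 0 in both groups. None of 12 cornified envelope genes had enough counts to be tested, and their summed level was at most 0.04 TPM. Of 7 S100 fused-type genes, which join an S100 domain to long repeats, only TCHH (trichohyalin) was tested. TCHH rose by 1.27 on the log2 scale from 0.262 ± 0.044 to 0.635 ± 0.070 CPM (edgeR adjusted p = 0.0012), a call lost with limma on log2(TPM + 1), where its levels of at most 0.10 TPM barely register. Among 6 markers of stratified epithelium, KRT14 rose by 2.16 on the log2 scale from 0.0777 ± 0.0322 to 0.348 ± 0.045 CPM (edgeR adjusted p = 0.00107). KRT5, its partner keratin, was at most 0.03 TPM. KRT10, by far the most abundant of these markers, went the other way, from 43.6 TPM in DMSO to 32.5 TPM in auxin. Its log2 fold change of -0.24 did not pass the test (edgeR adjusted p = 0.0859). It was called lower with the replicate block (edgeR adjusted p = 0.000747), with replicates 2 and 3 only and without auxin replicate 1.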

How the data were processed

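RNA-seq of 6 HCT116 libraries was analysed, 3 with auxin for 16 h and 3 with DMSO. Per the labels' protocols, total RNA (RIN 10) was depleted of ribosomal RNA and sequenced as stranded libraries in paired reads of 151 cycles. The submitters' processing notes name bcl2fastq 2.20, STAR and DESeq2 and the build GRCh38/hg38, without roles. The counting tool, its version and its strand setting are not given in the sources used here. Per the file headers, the authors deposited an expected count, an estimate that need not be whole, with its posterior mean and standard deviation, for each gene and transcript. The deposited TPM values are scaled per length and per library, and the deposited percent of each transcript within its gene was not used, since shares were computed from counts. All 58780 human gene IDs matched GENCODE 29, which gave coordinates, gene types and the transcript sequences searched for shared windows and polyadenylation signals. The transcript sequence itself is not reported here.

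The members and gene lists were chosen with earlier results of these data known. Expected counts were rounded and tested with edgeR 4.0.16 in R 4.3.3 (filterByExpr, TMM, glmQLFit and glmQLFTest), with Benjamini-Hochberg adjustment over 19725 genes and a call at an adjusted p under 0.05. CPM used TMM factors, and the SE came from the quasi-likelihood F statistic. Alternatives were DESeq2 1.42.0, upper-quartile factors, other count filters, posterior mean counts, a replicate block, limma 3.58.1 on log2(TPM + 1) or log2(TPM + 0.1), replicates 2 and 3 alone and each library left out.

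Same-numbered libraries were taken as pairs. Over 12848 genes, deviations from the group means of same-numbered libraries correlated at 0.891, 0.699 and 0.671 for replicates 1, 2 and 3. DMSO replicate 3 with auxin replicate 2 gave 0.664, and DMSO replicate 2 with auxin replicate 3 gave 0.439. Replicate 1 of either group with other numbers gave -0.669 to -0.836. These values set replicate 1 apart, but hardly separate replicates 2 and 3. The labels call the replicates biological without naming their source, so p-values cover the spread between these libraries.

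Named neighbours were the 5 with the largest and the 5 with the smallest log2 fold changes among those called, and the 3 nearest with at least 1 CPM on each side. For each list, at most 4 called genes each way were named by size of change; genes named beyond that (SUGT1, STK38, RYR1, CACYBP, NUP210L, RPS27 and S100P) and the marker genes were picked after their values were seen.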

Additional observations from a re-analysis of the deposited data

How the results depend on the processing

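For BX470102.2 the log2 fold change lay between 3.28 and 4.96 in all alternatives that kept it as a gene of its own, and between 4.74 and 4.91 when single libraries were left out. It was 3.28 on log2(TPM + 1) and 4.45 on log2(TPM + 0.1), where the added constant lowers a fold change from a level under 1 TPM. Summed with S100A16, an alternative chosen after seeing the data, it was 0.18. No gene overlaps BX470102.2, so the planned sum with overlapping genes gave no value. Of 144 values of the 9 S100 genes under alternatives, 134 moved by less than 1 SD between replicates, 10 moved further, and no called value changed sign. Upper-quartile factors shifted the median of all genes by 0.12 and the TPM fits by -0.14 and -0.15.

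Genes called higher numbered 970 and 1017, and lower 2966 and 3223, in the limma fits on log2(TPM + 1) and log2(TPM + 0.1), against 5010 and 5311. The cause was not tested. Neighbours called higher numbered 4 with upper-quartile factors, 3 without a filter, 3 with the replicate block, 2 with replicates 2 and 3 only, 0 and 0 in the limma fits, and 1 to 2 with single libraries left out (2 without DMSO replicate 2), against 1. The replicate block changed no other call named here except those given in the report. Neighbours called lower ranged from 8 to 15 over all alternatives, against 12. Depth limits S100A1 most, with 24 counts in its lowest library.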
